A study of Mus musculus with 6 samples.

Results

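Macrophage identity and polarization genes were examined in endometriosis-like ectopic lesions of mice grown from donor uterus with or without Dnmt3a, a DNA methyltransferase. The members are 10 of the 56884 genes in the count table, picked by name: Adgre1, Csf1r and Csf1 for macrophage identity and growth, Nos2 for inflammatory activation, Arg1, Chil3, Retnla, Mrc1 and Cd163 for repair, and Gata6 for resident peritoneal macrophages. All 10 were found and passed the filter on low counts. The 3 control lesions (WT) came from Dnmt3a f/f donors, and the 3 knockout lesions (KO) came from Dnmt3a f/f:PR-Cre/+ donors, in which Cre acts in cells with progesterone receptor. Donors and recipients were female mice of 8 weeks, donors received estradiol for 3 days, and recipients were C57BL/6J mice with an estradiol pellet in both groups. Recipients carried an intact Dnmt3a in both groups, so the knockout applies to the grafted tissue and not to blood cells or peritoneal macrophages that enter from the host. The labels describe injection of uterine fragments into the peritoneal cavity with a time of 4 weeks, while the study's methods describe a fragment sutured to the mesentery and collection on day 21. RNA of each whole lesion was sequenced as 1 library, and fewer cells of a type and less RNA per cell cannot be told apart in such data.

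Macrophages of the peritoneal cavity come from resident cells, which depend on the transcription factor Gata6, and from monocytes that arrive from the blood. Csf1 and Il34 are the ligands of the receptor Csf1r and keep macrophages alive, and the F4/80 antigen encoded by Adgre1 marks most mouse macrophages. Bacterial products and interferon gamma induce Nos2, which makes nitric oxide from arginine, whereas interleukin 4 and interleukin 13 act through Stat6 to induce Arg1, Chil3, Retnla and Mrc1, and Arg1 turns the same arginine into ornithine. In endometriosis, macrophages are known for supporting lesion growth, vessels and nerves.

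The libraries held 45370342 to 57239184 counts, and levels are given as CPM, which divides counts by library size after TMM scaling, for replicates 1, 2 and 3. Dnmt3a, the targeted gene, was at 52.7, 43.9 and 51.7 CPM in WT lesions and at 30.3, 33.5 and 36.2 CPM in KO lesions, with no overlap. Markers of endometrial epithelium and stroma were present in every library. WT replicate 2 stood apart through neutrophil transcripts: S100a9 was at 5263 CPM there and at 2.38 to 240 CPM in the other 5 lesions. Skeletal muscle transcripts summed to 26552 and 27452 CPM in WT replicates 1 and 3 and to 3.47 to 14.1 CPM elsewhere, acinar pancreas transcripts reached 3458 CPM in WT replicate 3 and at most 15.9 CPM elsewhere, and adipocyte transcripts were highest in KO replicate 3.

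Of the 10 members, 9 had a lower and 1, Arg1, a higher estimate in KO lesions, and their log2 fold changes had a median of -0.76 against 0.01 over the 18177 genes tested. No member passed an adjusted p under 0.05 in the quasi-likelihood test of edgeR, adjusted over all genes by the method of Benjamini and Hochberg (0.321 to 0.985), a threshold that 0% of all genes passed as higher and 0.00550% as lower. At the study's threshold, an unadjusted p under 0.05 with a log2 fold change beyond 1, Nos2 and Retnla were lower, 2 of 10 members against 5.85% of all genes. None of the 10 was higher at that threshold, against 3.10% of all genes. The same pair, Nos2 and Retnla, were the members in which every KO lesion lay below every WT lesion, 2 of 10 against 8.74% of all genes, and for 0 of 10 every KO lesion lay above, against 10.7%. A p that misses the threshold does not show that levels were alike, since the common biological coefficient of variation was 44.2%.

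**Figure D1:**
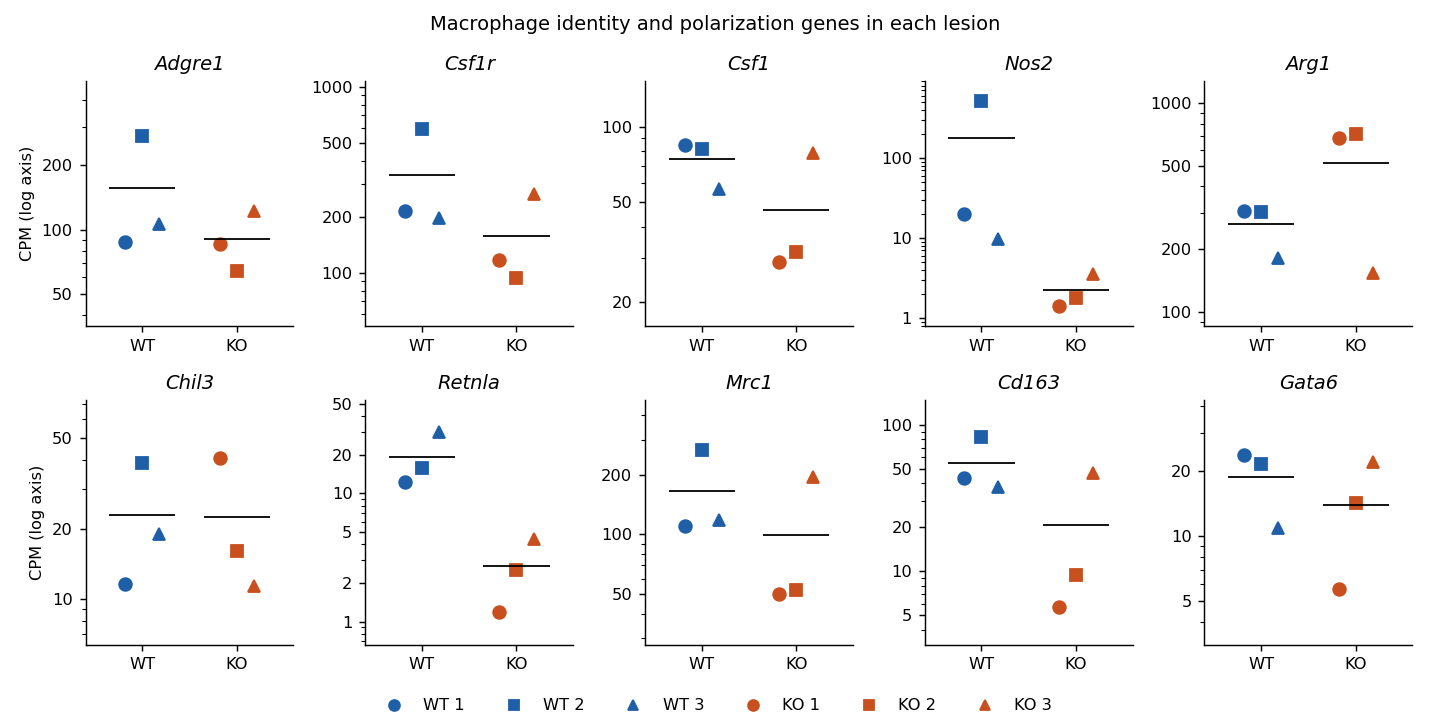
CPM of each member (log axes, a scale of its own per panel) in the 3 WT lesions (blue) and 3 KO lesions (orange), with the replicate number given by the symbol and the group mean by the line. Nos2 and Retnla are the panels without overlap, and KO replicate 3 lies inside the WT range in 6 of the 10 panels, beside 53.4% of all genes.

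The KO lesions differed among themselves. KO replicates 1 and 2 were both below every WT lesion for 7 of 10 members (Adgre1, Csf1r, Csf1, Nos2, Retnla, Mrc1 and Cd163), where 22.4% of all genes tested had this order. KO replicate 3 was above the other 2 KO lesions for 8 of 10 members, against 37.7% of all genes. It was inside the WT range for 6 of 10, close to the 53.4% of all genes. WT replicate 2 had the highest value for 5 of 10 members, against 24.2% of all genes.

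Per length of the gene's exons, which allows levels of different genes to be compared, Arg1 was the most abundant member in both groups, with means of 118 CPM per kb in WT and 232 CPM per kb in KO lesions. In WT lesions it was followed by Csf1r (58.0), Adgre1 (48.1), Nos2 (40.5), Retnla (32.1), Mrc1 (25.8), Chil3 (14.2), Csf1 (14.1), Cd163 (10.01) and Gata6 (2.89 CPM per kb). In KO lesions the order after Arg1 was Adgre1 (28.1), Csf1r (27.4), Mrc1 (15.5), Chil3 (13.9), Csf1 (8.82), Retnla (4.51), Cd163 (3.80), Gata6 (2.15) and Nos2 (0.511 CPM per kb). Nos2 was thus near the top of the WT order and last in the KO order, but its WT levels ran from 2.20 to 115 CPM per kb and its WT rank rests on replicate 2. Neighbours in the WT order overlapped over the lesions, as Csf1r (34.0 to 103) and Adgre1 (27.0 to 84.2 CPM per kb) did, except that Gata6 (1.67 to 3.67) lay wholly below Cd163 (6.88 to 15.1 CPM per kb). In the KO order, Arg1 (69.5 to 319) lay wholly above Adgre1 (19.8 to 37.9) and Nos2 (0.326 to 0.803) wholly below Gata6 (0.873 to 3.40 CPM per kb), and the other neighbours overlapped.

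Adgre1, the F4/80 antigen, was at 87.4, 273 and 107 CPM in WT and at 85.8, 64.2 and 123 CPM in KO lesions. WT replicate 2 was the high lesion, and the groups overlapped because KO replicate 3 exceeded WT replicates 1 and 3. The means were 156 ± 102 and 90.9 ± 29.5 CPM (SD, n = 3 each), and the log2 fold change of -0.78 (SE 0.49) was -0.09 without WT replicate 2.

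Csf1r, the receptor through which macrophages receive their survival signal, was at 214, 594 and 196 CPM in WT and at 117, 93.0 and 264 CPM in KO lesions. KO replicates 1 and 2 were the lowest of the 6 lesions, and KO replicate 3 lay between the WT values. The log2 fold change was -1.08 (SE 0.60, adjusted p = 0.409, edgeR), and it was -0.37 without WT replicate 2 and -1.67 without KO replicate 3.

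Csf1, the ligand, had less spread among WT lesions, with 84.7, 82.0 and 56.4 CPM, while KO lesions had 28.9, 31.7 and 79.1 CPM. KO replicates 1 and 2 were again the lowest, and KO replicate 3 was close to WT replicates 1 and 2. The log2 fold change was -0.68 (SE 0.43, adjusted p = 0.460, edgeR) and reached -1.29 without KO replicate 3. Il34, the other ligand of Csf1r, was at 4.68, 7.65 and 4.87 CPM in WT and at 1.79, 2.50 and 4.04 CPM in KO lesions, with no overlap (log2 fold change -1.05, SE 0.39, adjusted p = 0.332, edgeR; -0.78 without WT replicate 2). The ratio of Csf1r to Csf1 was 2.52, 7.25 and 3.48 in WT and 4.05, 2.93 and 3.34 in KO lesions, with overlap (exact permutation p = 0.8).

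Nos2, the inducible nitric oxide synthase, was at 20.1, 507 and 9.72 CPM in WT and at 1.44, 1.79 and 3.54 CPM in KO lesions. Even the lowest WT lesion, replicate 3, was above the highest KO lesion, and WT replicate 2 was far above all others. The fold change on the log2 scale was -6.31 (SE 1.78, unadjusted p = 0.0121, adjusted p = 0.321, edgeR). Without WT replicate 2 it was -2.72, with an unadjusted p of 0.00317 and an adjusted p of 0.0970. The exact permutation p was 0.1, the smallest that 3 lesions against 3 allow.

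WT replicate 2 was also the lesion with the most neutrophil transcripts. The sum of 9 neutrophil markers, leaving out Ltf, came to 480, 9877 and 215 CPM in WT and to 82.6, 37.3 and 185 CPM in KO lesions, with Ngp and Camp at 0 in at least 1 library. Nos2 and this sum were both lowest in KO replicates 1 and 2, and their part in the Nos2 result was not tested. Ltf, which is also an estrogen-induced gene of uterine epithelium, was left out after its values of 9882 to 33570 CPM were seen. The other nitric oxide synthases had other orders. Nos3, the endothelial form, was at 11.7, 18.3 and 11.4 CPM in WT and at 9.86, 5.76 and 20.3 CPM in KO lesions. Nos1, the form of neurons and muscle, was at 15.2 and 14.8 CPM in WT replicates 1 and 3, the lesions with skeletal muscle transcripts, and at 1.54 to 2.22 CPM in the other 4.

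Arg1, the arginase of repair macrophages, was the member with the higher estimate in KO lesions. It was at 305, 304 and 181 CPM in WT lesions and at 684, 710 and 155 CPM in KO lesions. KO replicates 1 and 2 were more than 2 times as high as any WT lesion, while KO replicate 3 was the lowest of all 6, so the groups overlapped. The log2 fold change was 0.97 (SE 0.58, adjusted p = 0.440, edgeR), and it ran from 0.68 when KO replicate 2 was left out to 1.41 without KO replicate 3. Arg2, the mitochondrial arginase, was at 6.70, 122 and 2.90 CPM in WT and at 20.5, 26.1 and 7.56 CPM in KO lesions, highest in WT replicate 2.

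Markers of endometrial epithelium, 8 genes with Foxa2 at 0 in at least 1 library, summed to 1824, 1842 and 2592 CPM in WT and to 3060, 2694 and 1666 CPM in KO lesions. The sum and Arg1 were both highest in KO replicates 1 and 2 and lowest in KO replicate 3, whereas WT replicate 3 had a high sum and a low Arg1. Their part in the Arg1 values was not tested. The ratio of Arg1 to Nos2 was 15.1, 0.5995 and 18.7 in WT and 476, 397 and 43.7 in KO lesions, without overlap (exact permutation p = 0.1, and 0.35 after Benjamini-Hochberg adjustment over the 7 ratios computed).

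**Figure D2:**
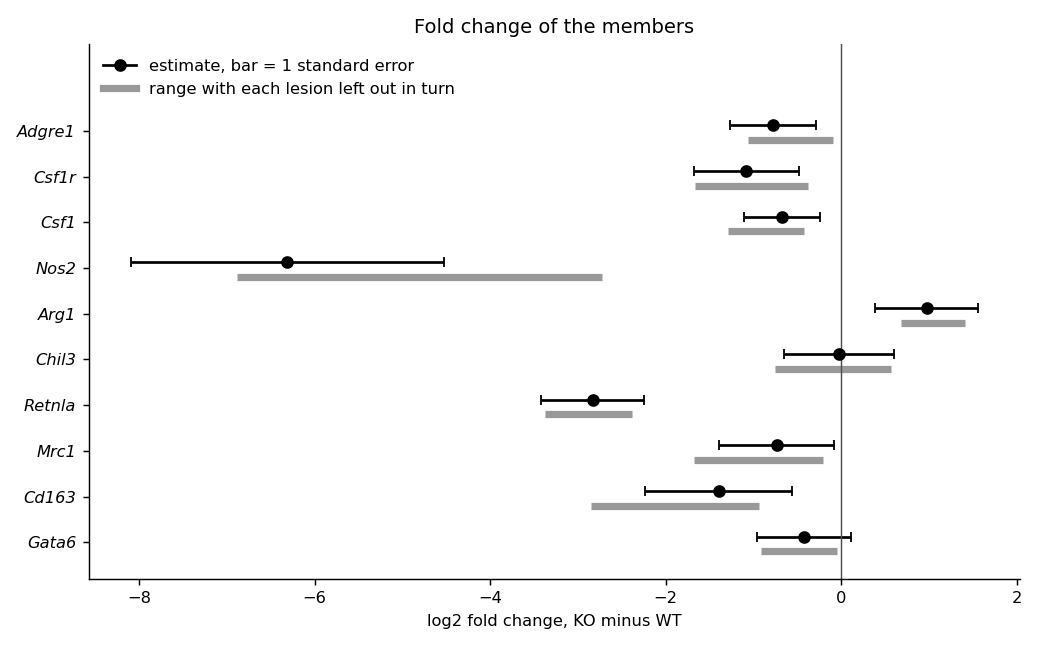
Log2 fold change, KO minus WT, of each member with 1 standard error (black), and the range of the estimate with each lesion left out in turn (grey). Retnla ranges from -3.38 to -2.38, Nos2 spans -6.88 to -2.72, and only the range of Chil3 crosses 0.

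Retnla, a small secreted protein of macrophages under interleukin 4, was at 12.2, 15.7 and 29.8 CPM in WT and at 1.19, 2.50 and 4.42 CPM in KO lesions. All 3 KO lesions were below all 3 WT lesions, of which replicate 3 was the highest. The means were 19.3 ± 9.33 and 2.70 ± 1.62 CPM (SD, n = 3 each), a 7.12-fold lower estimate. On the log2 scale it was -2.83 (SE 0.59, unadjusted p = 0.00293, adjusted p = 0.321, edgeR), and leaving out any lesion kept it between -3.38 and -2.38. Its KO values rest on 68, 126 and 212 counts. With DESeq2's Wald test its adjusted p was 0.000164, the only alternative of 13 in which a member passed 0.05, and over the 13 it ran up to 0.668.

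Retnla belongs to a family with similar sequences, and its transcript was identical to that of Retnlg over 84.5% and to that of Retnlb over 72.5% of aligned bases. Retnlg, which neutrophils express and which is 1 of the 9 neutrophil markers summed above, did not have the order of Retnla. It was at 15.6, 242 and 17.3 CPM in WT and at 37.2, 19.3 and 24.9 CPM in KO lesions. All KO lesions were thus above WT replicates 1 and 3. S100a9, another of the 9, was at 240 and 98.4 CPM in WT replicates 1 and 3 and at 16.1, 2.38 and 57.8 CPM in KO lesions. Retnlb had no count in any library.

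Chil3, a chitinase-like protein also called Ym1, was at 11.6, 38.7 and 19.1 CPM in WT and at 40.6, 16.1 and 11.4 CPM in KO lesions. The highest lesions were WT replicate 2 and KO replicate 1, and the groups overlapped throughout. The estimate on the log2 scale was -0.03 (SE 0.62, adjusted p = 0.985, edgeR), and its sign depended on single lesions (0.56 without WT replicate 2, -0.75 without KO replicate 1). Chil4, whose transcript was 94.4% identical, stayed between 0.27 and 0.90 CPM, and how reads common to both were assigned is not given in the sources used here.

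Mrc1, the mannose receptor CD206, was at 110, 265 and 119 CPM in WT and at 50.3, 52.4 and 194 CPM in KO lesions. KO replicates 1 and 2 were below every WT lesion, while KO replicate 3 was second only to WT replicate 2. The estimate of -0.73 (SE 0.65, adjusted p = 0.592, edgeR) was -0.21 without WT replicate 2 and -1.68 without KO replicate 3.

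Cd163, the scavenger receptor for haemoglobin bound to haptoglobin, was at 43.7, 82.7 and 37.6 CPM in WT and at 5.70, 9.38 and 47.2 CPM in KO lesions. As for Mrc1, KO replicates 1 and 2 were below every WT lesion and KO replicate 3 was second to WT replicate 2, and the estimate of -1.40 (SE 0.84, adjusted p = 0.440, edgeR) moved to -2.86 when KO replicate 3 was left out, to -0.94 when KO replicate 1 was, and to -0.97 when WT replicate 2 was. The ratio of Cd163 to Mrc1 was 0.397, 0.312 and 0.317 in WT and 0.113, 0.179 and 0.243 in KO lesions. This ratio, which library scaling cannot change, was lower in every KO lesion than in any WT lesion, KO replicate 3 included (exact permutation p = 0.1, adjusted 0.35 over the 7 ratios).

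The 6 adipocyte markers, all counted, summed to 1086, 2530 and 863 CPM in WT and to 444, 808 and 3910 CPM in KO lesions. WT replicate 2 and KO replicate 3, the highest lesions for Mrc1, Cd163 and Csf1r, also had the highest adipocyte sums, and KO replicate 1, the lowest lesion for Mrc1 and Cd163, had the lowest sum. The part of adipose tissue in these values was not tested.

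**Figure D3:**
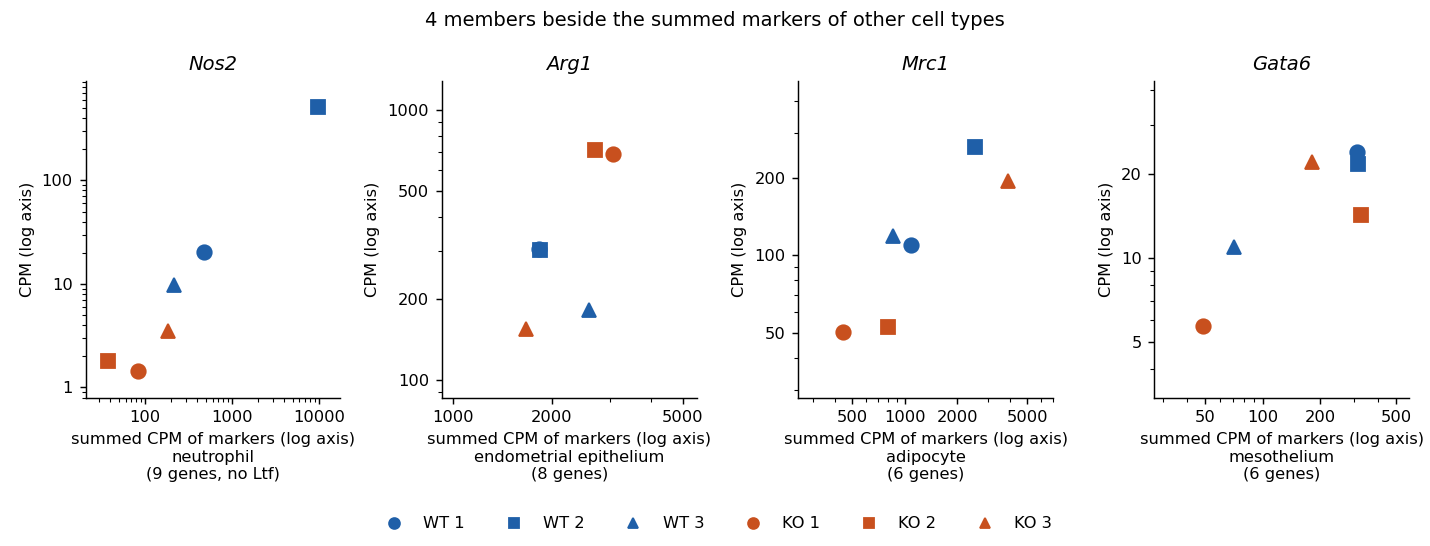
CPM of Nos2, Arg1, Mrc1 and Gata6 (vertical) against the summed CPM of markers of neutrophils without Ltf, endometrial epithelium, adipocytes and mesothelium (horizontal), with 1 point per lesion on log axes. WT replicate 2 is at 507 CPM of Nos2 and 9877 CPM of neutrophil markers, and WT replicate 3 and KO replicate 1 are lowest for both Gata6 and mesothelium.

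As Dnmt3a methylates cytosines next to guanine (CpG), CpG were counted in promoter sequences. These are shown for Retnla, which was lower in every KO lesion, and for Mrc1, Cd163 and Csf1, which shared low values in KO replicates 1 and 2. They come from RefSeq (GRCm38.p6), whose table held 5 of the 10 members, and are given 5′ to 3′ on the gene's strand, ending at the last base before the first transcript start in RefSeq or GENCODE M21. The stretches are chr16:48842359-48842550 (+) for Retnla, chr2:14229164-14229391 (+) for Mrc1, chr6:124304401-124304650 (+) for Cd163 and chr3:107760470-107760719 (-) for Csf1. Capitals mark a Stat6-type match in Retnla and each CpG in the others.
Retnla: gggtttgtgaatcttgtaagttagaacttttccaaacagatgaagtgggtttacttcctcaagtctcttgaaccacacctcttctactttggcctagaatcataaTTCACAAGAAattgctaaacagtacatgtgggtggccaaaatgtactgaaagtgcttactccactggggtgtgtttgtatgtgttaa
Mrc1: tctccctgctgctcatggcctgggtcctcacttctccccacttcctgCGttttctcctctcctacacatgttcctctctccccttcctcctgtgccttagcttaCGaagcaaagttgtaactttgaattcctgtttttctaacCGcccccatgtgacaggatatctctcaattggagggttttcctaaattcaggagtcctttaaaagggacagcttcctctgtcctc
Cd163: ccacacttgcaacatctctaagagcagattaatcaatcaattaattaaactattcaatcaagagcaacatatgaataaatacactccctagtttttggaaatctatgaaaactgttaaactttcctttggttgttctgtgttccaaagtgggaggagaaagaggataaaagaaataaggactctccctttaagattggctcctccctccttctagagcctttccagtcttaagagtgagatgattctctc
Csf1: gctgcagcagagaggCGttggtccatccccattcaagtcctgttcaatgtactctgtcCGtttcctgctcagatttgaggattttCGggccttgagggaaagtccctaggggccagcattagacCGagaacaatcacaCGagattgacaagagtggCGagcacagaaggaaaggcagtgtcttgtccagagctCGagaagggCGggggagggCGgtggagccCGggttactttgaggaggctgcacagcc
No methylation was measured in these samples, and the knockout applies to the grafted tissue and not to macrophages that enter from the host. In the 250 bases before the RefSeq start, Cd163 had 0 CpG, Retnla 1, which lies past the stretch shown, Mrc1 3 and Csf1 10, beside a median of 6 over 32851 promoter windows. The windows with fewer CpG than these made up 7.9% for Retnla, 29.0% for Mrc1 and 62.2% for Csf1. The Stat6-type pattern, TTC and GAA set 4 bases apart, was found 145 bases before the RefSeq start of Retnla and in none of the other 4 members, and 5.85% of all windows held it. The 2 sources differ on the start of Retnla, and the last 58 of its 250 bases lie in its GENCODE M21 transcript. The core motif of the macrophage factor PU.1, GAGGAA on either strand, was found 3 times in Mrc1 and 1 time in Retnla and is held by 23.2% of windows. The AP-1 motif TGACTCA was in none of the 5 and in 4.46% of windows. These matches are descriptions of letters and not of bound sites. Of the Cd163 stretch, 28 bases overlap another gene, Gm25311.

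Gata6, the transcription factor of large resident peritoneal macrophages, was at 23.9, 21.7 and 10.9 CPM in WT and at 5.68, 14.2 and 22.1 CPM in KO lesions. The groups overlapped, with WT replicate 3 and KO replicate 1 as the lowest lesions. Its log2 fold change of -0.43 (SE 0.54, adjusted p = 0.708, edgeR) was -0.05 without KO replicate 1 and reached -0.92 when KO replicate 3 was left out. Mesothelial cells also express Gata6, and the 6 mesothelial markers, all counted, summed to 313, 315 and 70.8 CPM in WT and to 48.8, 326 and 182 CPM in KO lesions. The lowest sums were in WT replicate 3 and KO replicate 1 too, and the part of mesothelium in the Gata6 values was not tested.

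To set the members against general macrophage transcripts, each was compared with 17 other macrophage genes of the same lesion, among them Cd68, C1qa and Lyz2. The geometric mean of these genes was 82.5, 183 and 87.8 CPM in WT lesions and 65.6, 44.2 and 90.2 CPM in KO lesions, so the groups overlapped (difference of the mean log2 level -0.78, exact permutation p = 0.3). Of the 17, 14 were highest in WT replicate 2, the lesion with the most neutrophil transcripts, whose part in this mean was not tested. Spi1 was at 131 CPM there and at 29.4 and 23.6 CPM in WT replicates 1 and 3. For Cx3cr1 these values were 55.0, 55.9 and 47.1 CPM. On this scale, a log2 difference from the mean of the 17 genes in the same lesion, Adgre1 lay within a narrow band, 0.08 to 0.58 in WT and 0.39 to 0.54 in KO lesions. Retnla was at -2.74, -3.53 and -1.55 in WT and at -5.67, -4.09 and -4.32 in KO lesions, still without overlap. Nos2 was at -2.03, 1.47 and -3.16 in WT and at -5.41, -4.55 and -4.63 in KO lesions, also without overlap. For both, the exact permutation p was 0.1, the smallest possible, and 0.5 after Benjamini-Hochberg adjustment over the 10 members compared on this scale. The share of all genes without overlap on this scale was not computed. Cd163 was at -0.91, -1.14 and -1.22 in WT, and KO replicates 1 and 2, at -3.50 and -2.22, were below that range while KO replicate 3, at -0.93, was inside it. Arg1 was at 3.38 and 4.01 in KO replicates 1 and 2 and at 0.74 to 1.89 in WT lesions, with KO replicate 3 at 0.78.

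**Figure D4:**
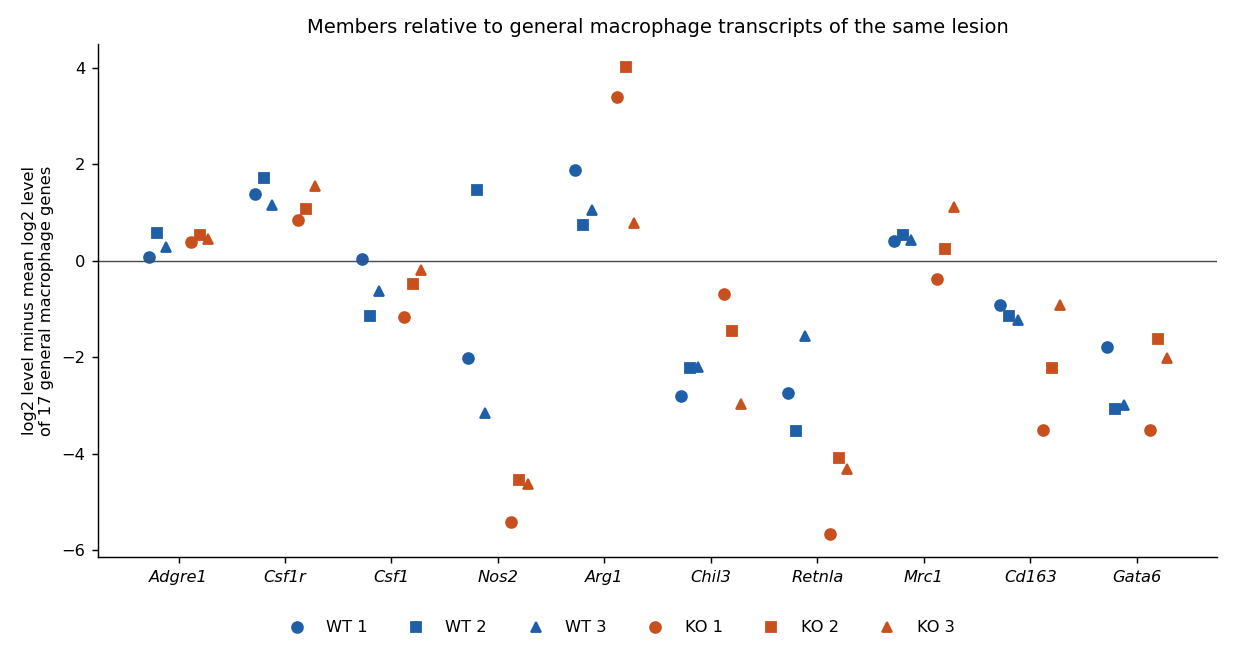
Log2 level of each member, with 0.1 CPM added, minus the mean log2 level of 17 general macrophage genes of the same lesion (WT blue, KO orange). Nos2 and Retnla remain apart between the groups, and KO replicates 1 and 2 are apart from KO replicate 3 for Arg1 and Cd163.

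Other macrophage genes were read in 6 lists, all of whose genes were tested, and none of these genes had an adjusted p under 0.05 (edgeR). Beside the counts that follow, 5.85% of all genes passed the study's threshold as lower and 3.10% as higher, and 8.74% did not overlap as lower and 10.7% as higher. Of the 17 general macrophage genes, 15 had a lower estimate, 1 passed the study's threshold as lower, which is near the share of all genes, and 0 as higher, and the median fold change on the log2 scale was -0.85 (-0.41 without WT replicate 2). That gene was Cd14, the co-receptor for lipopolysaccharide, at 419, 1476 and 870 CPM in WT and at 153, 113 and 213 CPM in KO lesions, without overlap (-2.53, SE 0.52). Aif1 (-1.11, and -0.62 without WT replicate 2) did not overlap either. Spi1, which encodes PU.1, had an estimate of -1.75 that was -0.54 without WT replicate 2.

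Of the 7 growth and lineage factors, all had a lower estimate, with a median of -1.05 (-0.71 without WT replicate 2), and 2 passed the study's threshold, Il34 and Csf3. Without WT replicate 2, 1 of the 7 passed, and Il34 did not. Csf3, the neutrophil growth factor, was at 48.7, 75.2 and 125 CPM in WT and at 16.8, 17.1 and 22.9 CPM in KO lesions. Its log2 fold change was -2.13 (SE 0.37) and -2.19 without WT replicate 2. Runx1, a transcription factor of blood cells, did not overlap between groups (-0.87). The 6 monocyte genes had a median of -0.996 (-0.66 without WT replicate 2), and 2 passed the study's threshold (1 without WT replicate 2). Among them was Ly6c2, the surface protein of inflammatory monocytes, at 12.9, 73.8 and 15.9 CPM in WT and at 8.12, 3.56 and 7.48 CPM in KO lesions. Plac8 did not overlap (-0.83).

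The 17 genes of inflammatory activation all had a lower estimate, 9 of them passed the study's threshold and 9 did not overlap between groups, with a median of -2.45. WT replicate 2 was the highest lesion for 16 of the 17, and without it the median was -1.01 and 5 genes passed. The neutrophil sum without Ltf was highest in WT replicate 2 too, and did not overlap between groups. It ran from 215 to 9877 CPM in WT and from 37.3 to 185 CPM in KO lesions, and the part of neutrophils in these estimates was not tested. Il12b, a subunit of interleukin 12, differed little among WT lesions, with 0.897, 1.17 and 1.05 CPM, and was at 0.175, 0.238 and 0.292 CPM in KO lesions (-2.13, SE 0.34). The estimate of Cxcl9, which interferon gamma induces, was -2.42 and was -2.21 without WT replicate 2. Slc7a2, a transporter that brings arginine into macrophages, was at 92.2, 62.9 and 71.6 CPM in WT and at 42.7, 43.7 and 48.6 CPM in KO lesions, also without overlap (-0.75, SE 0.17).

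Of the 20 repair and scavenger genes, 17 had a lower and 3 a higher estimate, and 5 passed the study's threshold as lower, with a median of -0.95. The median was -0.24 without WT replicate 2, where 2 genes passed, and -1.61 without KO replicate 3. Ccl22, a chemokine for regulatory T cells, was at 5.66, 14.0 and 3.63 CPM in WT and at 2.07, 0.755 and 2.17 CPM in KO lesions (-2.22, SE 0.66, and -1.48 without WT replicate 2). Il10 and Il1rn, which restrain inflammation, had estimates of -3.04 and -4.21 that were -1.17 and -1.52 without WT replicate 2. Il4ra and Stat6, the receptor chain and the transcription factor behind Retnla and Arg1, had estimates of -0.54 and -0.29, with overlap between the groups, and without WT replicate 2 the estimates were -0.24 and 0.069, so that of Stat6 turned; this pair was picked after its values were seen.

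The 11 further genes of resident peritoneal macrophages had a median of -0.86 (-0.30 without WT replicate 2), and 8 had a lower estimate. Timd4, Cxcl13 and Prg4 passed the study's threshold as lower and 1 gene, F5, as higher. Every KO lesion lay below every WT lesion for 4 genes and above for 2, F5 and Alox15. Alox15, also named after its value was seen, had an estimate of 0.98 (SE 0.33). Timd4, a receptor for phosphatidylserine on dying cells, was at 2.48, 17.3 and 2.52 CPM in WT and at 0.316, 0.715 and 0.708 CPM in KO lesions (-3.68, SE 0.96, and -2.10 without WT replicate 2). Cxcl13 had an estimate of -4.24 (-1.80 without WT replicate 2) and Prg4 of -3.04 (-2.39). F5, coagulation factor V, named here after its value was seen, was at 28.5, 34.5 and 19.1 CPM in WT and at 83.2, 65.7 and 36.9 CPM in KO lesions (1.18, SE 0.36). Its 2 highest lesions, KO replicates 1 and 2, were those with the highest epithelial marker sums, whose part in this difference was not tested.

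**Figure D5:**
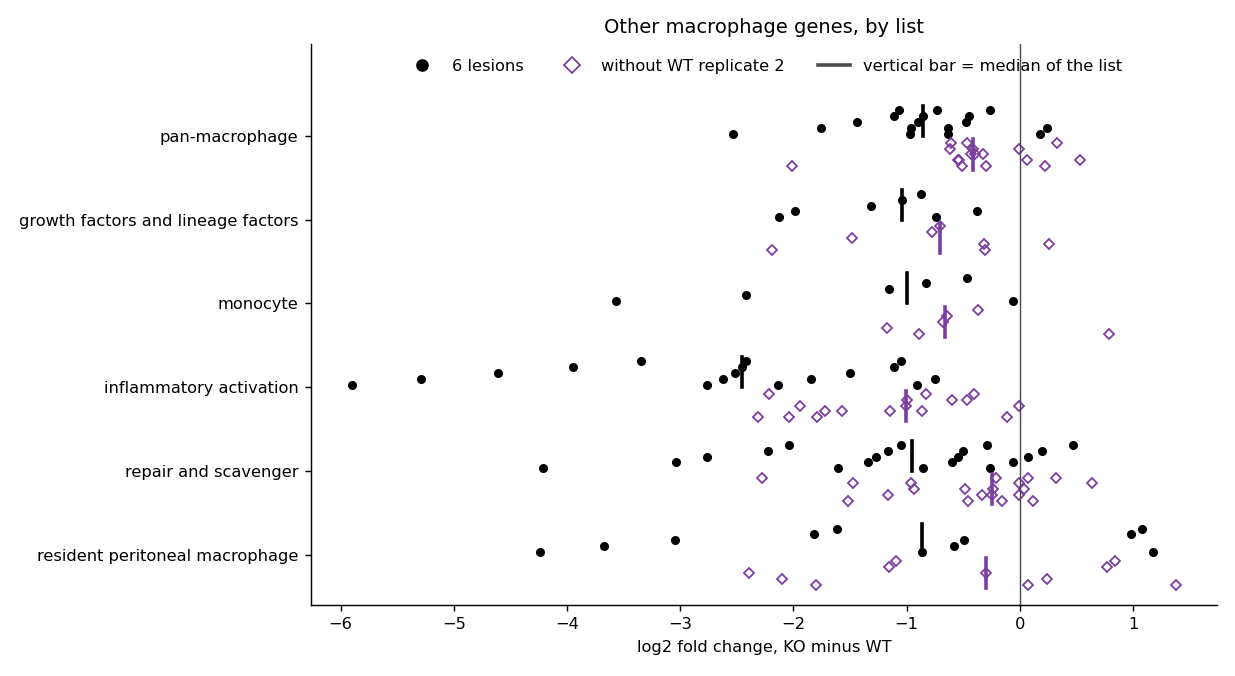
Log2 fold change, KO minus WT, of every gene in the 6 lists with all 6 lesions (black) and without WT replicate 2 (purple), and the median of each list (bar). The median of inflammatory activation is at -2.45 with and -1.01 without WT replicate 2, and all 6 medians stay below 0.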

How the data were processed

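Libraries were made from the RNA of 6 whole lesions with a stranded kit that selects messenger RNA. The authors deposited unnormalized whole-number counts for each gene, and the submitters' processing notes name Trimmomatic, featureCounts and DESeq2. The aligner and the annotation release are not given in the sources used here, and the sources disagree on the genome, GRCm38 in the study's methods and GRCm39 in the notes. Gene symbols came from GENCODE M21 (GRCm38), in which 51948 of 56884 identifiers were found without their version, and 3.04% to 3.56% of counts had no symbol. All 6 columns were mapped to a sample by its label, and no pair of libraries held identical counts.

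Genes were filtered with filterByExpr, scaled by TMM (factors 0.962 to 1.05) and fitted with edgeR 4.0.16 in R 4.3.3 by the quasi-likelihood test on genotype alone, with Benjamini-Hochberg adjustment over 18177 genes. Standard errors were derived from the estimate and its F statistic. CPM carry no prior count, single values and ratios were tested by exact two-sided permutation, and levels relative to other macrophage genes used log2(CPM + 0.1). Alternatives were DESeq2 1.42.0, its size factors, upper quartile scaling, other filters, limma 3.58.1 (voom, quality weights), a replicate block, each lesion left out in turn and a pseudocount of 1. The scripts were tested on simulated data.

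The members and lists were chosen with earlier results of these data known. Named were the members, Dnmt3a, Il34, paralogs and isoforms of members, from each list up to 3 genes with the smallest unadjusted p and a mean of at least 1 CPM in a group, and markers of other cell types that moved with a member. A gene that this rule names is not reported here. Reads carry no molecular identifiers. The methods give 3 donors per group, and p-values measure only the spread between these lesions.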

Additional observations from a re-analysis of the deposited data

How the results depend on the processing

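The sign of 9 of the 10 member fold changes was the same in all 13 alternatives. Chil3, at -0.03, turned to 0.070 with upper quartile scaling and 0.60 with limma voom, and ran from -0.75 without KO replicate 1 to 0.56 without WT replicate 2 with a lesion left out; leaving out KO replicate 2 (0.17) or KO replicate 3 (0.30) turned it too. The number of members past the study's threshold, 2, was 1 with the replicate block and 1 with DESeq2's Wald test, which gave Nos2 no p-value, 6 with limma voom (Arg1, Cd163, Csf1, Mrc1, Nos2 and Retnla), and from 2 to 7 with a lesion left out. The 7, without KO replicate 3, were these and Csf1r, with adjusted p from 0.117 to 0.193 (edgeR). Over all genes, 1064 lower genes became 1652 with no filter beyond 1 count and 573 with the replicate block, and ranged from 551, leaving out KO replicate 1, to 1650, leaving out KO replicate 3. The 564 higher genes became 372 with the block and 855 with limma voom, and ranged from 280, leaving out KO replicate 2, to 1021, leaving out KO replicate 3. Instead of 1 gene with an adjusted p under 0.05, there were 0 with DESeq2's size factors, with upper quartile scaling and with the block, 12 with limma voom, 1100 with DESeq2's Wald test, and 0 to 398 with a lesion left out, the 398 without WT replicate 2, where no member passed. The cause of these changes was not tested. Same-numbered lesions did not deviate together (correlations of their deviations 0.03, -0.15 and -0.20), so the numbers are not taken as pairs; under the block Nos2 was at -4.22 (unadjusted p = 0.0630, edgeR) and Retnla at -2.92. The neutrophil sum, 0.39 on the log2 scale of KO against WT, was -3.60 without Ltf, an alternative chosen after seeing the data. Upper quartile scaling moved the median of all genes from 0.01 to 0.11. The lowest count of a member in any library was 68.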

Other observations

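Marker sums of other immune cells were read beside those of macrophages. The 6 T cell markers, which include the CD3 chains, Cd4 and Cd8a, summed to 28.1, 80.3 and 30.1 CPM in WT and to 7.35, 5.01 and 22.1 CPM in KO lesions. Every KO lesion was thus below every WT lesion, with KO replicate 3 the nearest. Of all single genes tested, 8.74% had no overlap in this direction. The 5 B cell markers were at 14.9, 77.3 and 9.21 CPM in WT and at 9.81, 7.27 and 8.63 CPM in KO lesions and overlapped, as did the 6 dendritic cell markers (16.4 to 32.0 CPM in WT and 11.2 to 18.6 CPM in KO lesions). Eosinophil markers stayed between 3.14 and 11.7 CPM in all lesions. These sums were described without a test.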
